A study of Homo sapiens with 24 samples.

Results

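MYC and 37 genes that serve ribosome production were followed in A549 and Huh7 cells treated with herbal extracts. The 38 genes were named as MYC, its partner MAX and a set of nucleolar genes, with no cutoff on a measured value, though earlier results of these data were known when they were listed. All 38 were found once each in the deposited table of 14585 genes, and all 38 passed the filter on low counts in both lines. They fell into 6 roles, with 2 genes for MYC and its partner, 5 for RNA polymerase I and its factors, 8 for the proteins of small nucleolar RNPs, 9 for assembly of the small ribosomal subunit, 10 for assembly of the large subunit and 4 for abundant nucleolar and growth-linked proteins.

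MYC is a transcription factor that binds DNA as a dimer with MAX, and genes for ribosome production are among its best known targets. Ribosomes are made in the nucleolus, where RNA polymerase I copies the ribosomal DNA into a long precursor RNA, small nucleolar RNPs guide its chemical modification, and large sets of assembly factors cleave it and build the small and the large subunit around it. The pathway is known for its high activity in growing tumour cells and for its link to p53, which is stabilised when ribosome assembly is disturbed.

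RNA sequencing was carried out on 24 libraries in 8 groups of 3 replicates. A549 is a human lung carcinoma line with wild-type p53 and Huh7 is a human hepatoma line with mutant p53. Cells of each line, labelled WT in genotype, were kept as a control group or treated with an ethanol extract of Pulsatilla chinensis, Bupleurum chinense or Polyporus umbellatus that had been dissolved in DMSO. The dose and duration for the sequenced cells, and whether the control cells received DMSO, were not given in the sources used here, and nothing in them says that replicates came from separate cultures, so the p-values measure the spread between these libraries, which may be technical.

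Library totals ranged from 6803704 to 24345541 counts with a median of 10515192. The summed level of 10 hepatocyte and hepatoma markers was 13577 to 24709 CPM, the count scaled to the size of its library, in Huh7 and 78.9 to 187 CPM in A549, and that of 6 epithelial markers associated with A549 was 8857 to 11391 CPM in A549 and 423 to 742 CPM in Huh7. Within Huh7 the hepatocyte sum was lower with P. chinensis, at 13577 to 14318 CPM against 21801 to 22330 CPM in control, and in A549 it was lower with each extract, at 78.9 to 104 CPM against 159.9 to 187 CPM in control. Its part in the results was not tested. Of 6 blood, stromal and endothelial markers the sum was 24.7 to 39.2 CPM in A549 and 443 to 824 CPM in Huh7. In Huh7 control, where it was 783 to 824 CPM, most of it was LYZ, at 712 to 755 CPM. PECAM1 was at 34.9 to 38.4 CPM and CD68 at 29.5 to 32.4 CPM there, and PTPRC, COL1A1 and COL3A1 were each at 2.92 CPM or less. Of the lung lineage markers searched only SFTPB was in the table, at 1.06 to 2.82 CPM in A549, so the lung identity of A549 is not carried by its defining markers here. The libraries of Huh7 treated with P. umbellatus stood apart. For each library, log2 CPM minus the gene's mean over the 12 libraries of its line was set against transcript GC content. The slope was -0.21, -0.65 and -0.10 log2 units per 10 GC points in replicates 1, 2 and 3 of that group. It was 0.12 to 0.14 in the Huh7 control libraries, 0.07 to 0.11 in Huh7 with P. chinensis or B. chinense, and -0.09 to 0.04 in A549. The Huh7 mean includes the P. umbellatus libraries, so the slopes compare libraries within a line only. Replicate 2 was the most extreme, and several gene values and counts of calls are also given without it.

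The expression of the 38 genes decreased broadly in A549 cells with each extract. Of the 38, 21 were called lower and none higher with P. chinensis, where 17.1% of all genes tested were called lower and 15.7% higher. With B. chinense 19 were called lower and none higher, against 15% and 13.1% of all genes. With P. umbellatus 24 were called lower and none higher, against 14.8% and 13.4%. A gene is called here at a Benjamini-Hochberg adjusted p below 0.05 over all genes tested in edgeR's quasi-likelihood test, and log2 fold changes are given with their standard error (SE). The median log2 fold change of the 38 genes was -0.23, -0.24 and -0.28 with the 3 extracts (P. chinensis, then B. chinense, then P. umbellatus, an order kept wherever 1 value per extract is given), while that of all genes tested was 0.01, 0.00 and -0.01. With upper quartile scaling, which moved the median of all genes to 0.08 with P. chinensis, 15 of the 38 were lower and 1 higher, while all genes divided as 1785 lower and 2731 higher in place of 2326 and 2147. These 3 comparisons share the same 3 control libraries and are set side by side for that reason.

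The decreases were modest in size and were shared by most roles. Called members lay between 0.581-fold and 0.899-fold of control. Of all genes tested 10.9% were called lower with all 3 extracts, which share their control libraries. The 17 members so called were MYC, UBTF, FBL, DKC1, NOLC1, NOP14, HEATR1, UTP20, WDR43, NAT10, DDX21, PES1, BOP1, NOP2, NCL, NPM1 and PA2G4. POLR1B, NOP56, NOP58 and PPAN were called lower with 2 of the extracts, and NHP2, RRP9, BYSL, WDR74 and GNL3 with 1. The call of RRP9 with B. chinense, at -0.27 ± 0.09, was lost without any 1 of 9 libraries (adjusted p of 0.0554 to 0.160) and with DESeq2 (0.0743). The remaining 12 genes were called with none: MAX, POLR1A, POLR1C, RRN3, GAR1, UTP4, RRP12, WDR12, NOP16, RRS1, NIP7 and LYAR. As libraries of whole cultures were sequenced, fewer expressing cells and less RNA per cell cannot be told apart.

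**Figure D1:**
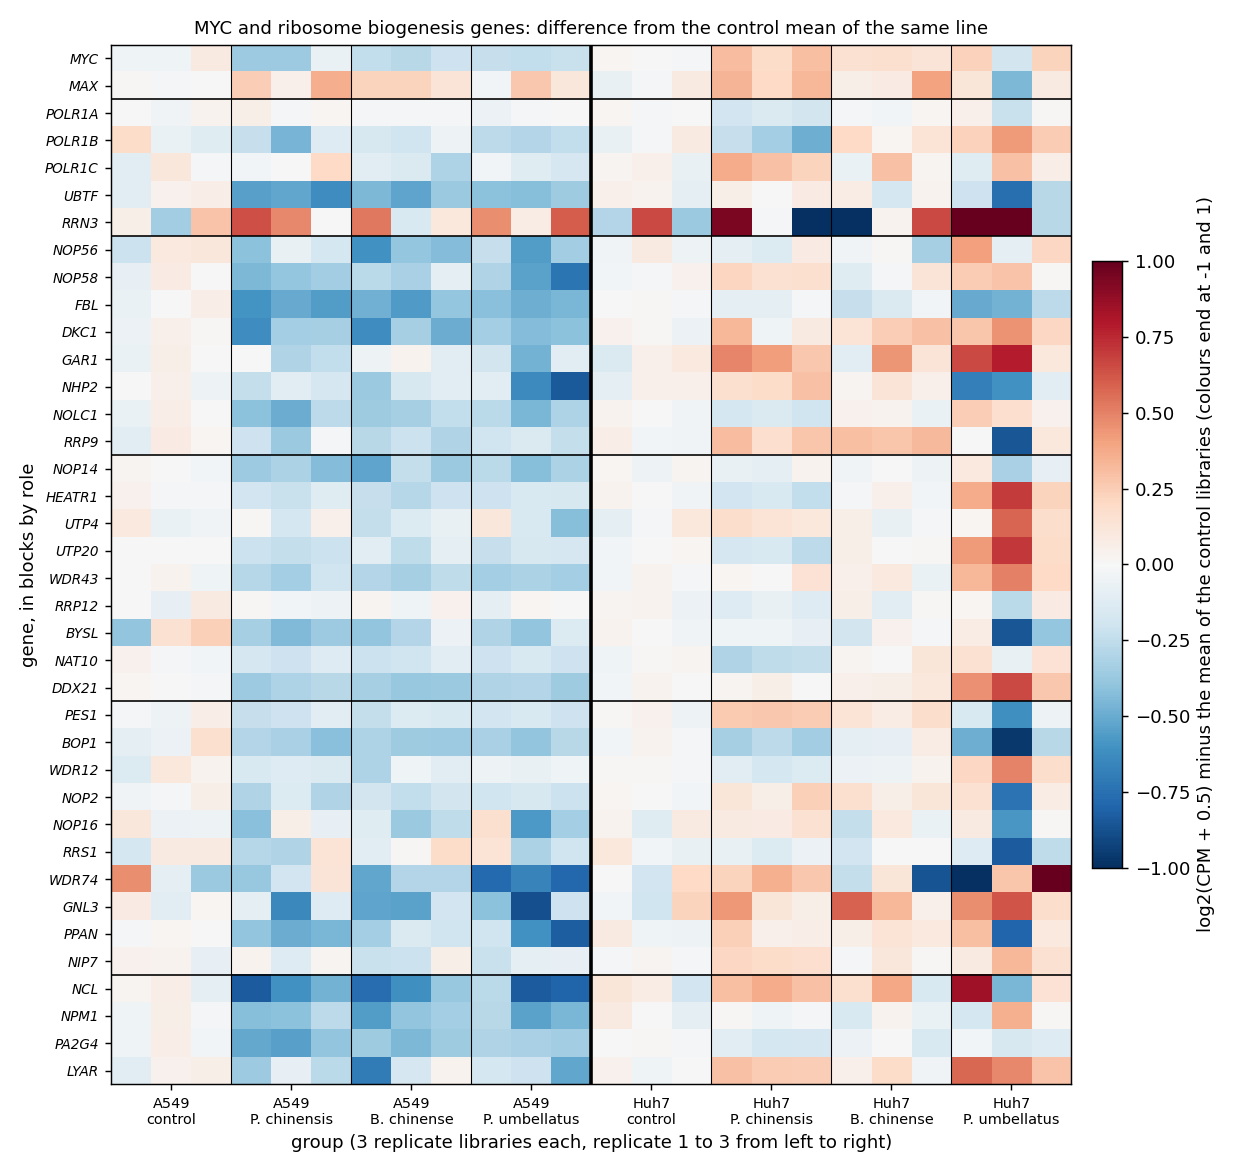
Each cell gives log2(CPM + 0.5) of 1 gene in 1 library minus the mean of the 3 control libraries of the same line, with the 38 genes in rows by role and the 24 libraries in columns by group. Blue cells fill the 9 treated A549 columns for most genes, the treated Huh7 columns hold both colours, and replicate 2 of Huh7 with P. umbellatus holds many dark blocks of both.

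In Huh7 cells few of the same genes were called with P. chinensis and none with B. chinense when all 12 libraries entered the fit. With P. chinensis 2 of the 38 were called lower and 1 higher, where 10.5% and 10.4% of all genes were called, and with B. chinense none was called in either direction, where 0.757% and 0.519% of all genes were called lower and higher. In the B. chinense comparison 1 of the 38 had an unadjusted p below 0.05 in edgeR and DESeq2 called 0. With P. umbellatus 4 were called lower and 9 higher, against 17.8% and 19.3% of all genes, so neither share was far from that of all genes. The medians over the 38 genes were 0.06, 0.01 and 0.10 with the 3 extracts. The count with P. chinensis depended on which libraries entered the fit. Without replicate 2 of the P. umbellatus group, which then no longer adds to the estimated spread, 9 genes were called lower and 7 higher, against 18.3% and 16.6% of all genes. With only the 6 libraries compared, 10 were called lower and 13 higher, against 21.5% and 20.6%.

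MYC itself decreased in A549 and tended the other way in Huh7. The gene lies on chromosome 8 at 127735434 to 127742951 (GRCh38, plus strand) and was counted 631 to 3195 times per library. In A549 its level was 214, 215 and 236 CPM in control, 172, 172 and 212 CPM with P. chinensis, 187, 182 and 192 CPM with B. chinense, and 189, 187 and 189.7 CPM with P. umbellatus. Every treated A549 library lay below every control library, although replicate 3 of P. chinensis, at 212 CPM, came close to the lowest control. The log2 fold changes were -0.26 ± 0.07, -0.25 ± 0.07 and -0.24 ± 0.07 (SE, n = 3 per group), with edgeR adjusted p of 0.0111, 0.0176 and 0.0209. These calls were near the threshold, and all 3 were lost without replicate 3 of the A549 control, at adjusted p of 0.0554, 0.0779 and 0.0932, and with upper quartile scaling, at 0.0529, 0.0603 and 0.0535. The call of MYC was also lost without P. chinensis replicate 1 (0.0554), B. chinense replicate 1 (0.0601) or 2 (0.0648), and P. umbellatus replicate 2 (0.0591). Exons of MYC overlap the antisense gene CASC11, and whether counting used strand is not given in the sources used here.

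In Huh7, MYC stood at 105, 103 and 102 CPM in control, 128, 117 and 127 CPM with P. chinensis, 115, 115 and 113 CPM with B. chinense, and 121, 90.9 and 120.3 CPM with P. umbellatus. The P. chinensis and B. chinense libraries all lay above control, whereas replicate 2 of P. umbellatus lay below it. The log2 fold changes of 0.26 ± 0.09, 0.15 ± 0.10 and 0.10 ± 0.10 were not called, with edgeR adjusted p of 0.0677, 0.606 and 0.418. With P. chinensis MYC was called higher by DESeq2 (0.0468), with upper quartile scaling (0.0338), with the 6 libraries compared (0.000963) and after a correction for GC content and length (0.00428), and with P. umbellatus after that correction (0.21, at 0.0389). Without replicate 2 of P. umbellatus the value for P. chinensis was the same, 0.26, and was called at an adjusted p of 0.000626 (0.0443 without replicate 3 of P. umbellatus), and that for P. umbellatus was 0.23 and was called at 0.0055. The difference between the lines in the response of MYC to P. chinensis was -0.47 ± 0.12 on the log2 scale, called at an adjusted p of 0.00668 in a model of all 24 libraries, and those for B. chinense, -0.35 ± 0.12, and P. umbellatus, -0.26 ± 0.12, were not called at 0.0598 and 0.102.

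MAX, the dimer partner of MYC, was called in none of the 6 comparisons with control. In A549 it stood at 55.0, 54.0 and 54.2 CPM in control, 64.7, 56.4 and 70.2 CPM with P. chinensis, 63.4, 63.5 and 59.6 CPM with B. chinense, and 53.5, 65.7 and 59.0 CPM with P. umbellatus. The P. chinensis and B. chinense libraries lay above control, with log2 fold changes of 0.23 ± 0.09 and 0.19 ± 0.09 that did not pass the test. In Huh7 its level was 26.3, 27.4 and 29.6 CPM in control, 35.2, 31.9 and 35.0 CPM with P. chinensis, 29.0, 29.3 and 36.9 CPM with B. chinense, and 30.2, 20.2 and 29.5 CPM with P. umbellatus. Only the P. chinensis libraries of Huh7 were all above control. With P. chinensis MAX was called higher in A549 with upper quartile scaling and with a mean of at least 50 counts. It was called higher with P. chinensis in Huh7 with only the 6 libraries compared and without P. umbellatus replicate 2.

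The genes of RNA polymerase I and its factors divided into 2 that decreased in A549 and 3 that were not called. UBTF, on chromosome 17 at 44205033 to 44221626, encodes the factor that binds along the ribosomal DNA and keeps it open. In A549 control it was at 145, 161 and 164 CPM, and it was at 107, 109 and 101 CPM with P. chinensis, 114, 108 and 121 CPM with B. chinense, and 118, 116 and 122 CPM with P. umbellatus. No treated library reached the lowest control, and the log2 fold changes were -0.57 ± 0.06, -0.45 ± 0.06 and -0.40 ± 0.06 (edgeR adjusted p of 4.26e-06, 5.32e-05 and 0.000123).

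In Huh7, UBTF was at 92.3, 91.3 and 83.6 CPM in control, 92.8, 88.9 and 94.4 CPM with P. chinensis, 93.9, 78.6 and 91.3 CPM with B. chinense, and 76.8, 52.6 and 73.2 CPM with P. umbellatus. The first 3 groups overlapped and the P. umbellatus libraries lay below them. Only the fall with P. umbellatus, -0.39 ± 0.12, was called in Huh7, and the call of UBTF was lost without control replicate 1 (adjusted p of 0.0734) or 2 (0.0626) and after the correction for GC content and length (-0.22, at 0.0665). UBTF was at -0.25 without replicate 2 of P. umbellatus and still called. POLR1B, the second largest subunit of RNA polymerase I, was at 143, 120.5 and 116 CPM in A549 control, 108, 91.3 and 115 CPM with P. chinensis, 113, 110.0 and 122 CPM with B. chinense, and 105, 103 and 106 CPM with P. umbellatus. The B. chinense libraries overlapped with control while the other 2 treated groups lay below it.

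In Huh7, POLR1B was at 109, 113 and 122 CPM in control, 97.6, 90.3 and 81.5 CPM with P. chinensis, 132, 116 and 126 CPM with B. chinense, and 134, 154 and 137 CPM with P. umbellatus. The P. chinensis libraries lay below control and the P. umbellatus libraries above it. POLR1B therefore fell with P. chinensis in both lines, by 0.27 ± 0.09 on the log2 scale in A549 and by 0.35 ± 0.09 in Huh7, and with P. umbellatus it fell by 0.27 ± 0.09 in A549 and rose by 0.30 ± 0.09 in Huh7. In A549 the calls of POLR1B were lost without control replicate 1, at adjusted p of 0.136 and 0.145, and the call with P. chinensis without its replicate 2, at 0.119. The call with P. umbellatus in A549 was also lost without any 1 of its own 3 libraries, at 0.0621 to 0.0859, or B. chinense replicate 1, at 0.0509. In Huh7 the call of POLR1B with P. chinensis was lost without its replicate 3 (0.0624) or control replicate 3 (0.0621), and that with P. umbellatus without control replicate 1 (0.0712) or 2 (0.08). In Huh7 POLR1B rose by 0.24 without replicate 2 of P. umbellatus, and after the correction for GC content and length its value was 0.08 and was not called (0.44). Upper quartile scaling removed both A549 calls of POLR1B (0.0965 and 0.0647). With only the 6 libraries compared, POLR1B was not called with P. chinensis in A549 (0.0618) or with P. umbellatus in Huh7 (0.0876). POLR1A, the largest subunit, and POLR1C, a subunit shared with RNA polymerase III, were called in none of the 6 comparisons of an extract with control as fitted. In Huh7 with P. chinensis, POLR1A was called lower by DESeq2 and after the correction for GC content and length. With only the 6 libraries compared or without P. umbellatus replicate 2, POLR1A was called lower there and POLR1C higher. POLR1A was also called lower in A549 with B. chinense after that correction. RRN3, which bridges the polymerase to its promoter, ranged widely, from 10.4 to 92.0 CPM over the Huh7 libraries, and its log2 fold change of 1.0 ± 0.63 with P. umbellatus in Huh7 was not called. RRN3 has 3 named pseudogenes in the annotation, so its reads may be shared with them.

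Proteins of the small nucleolar RNPs, which modify the ribosomal RNA, decreased in A549 in 4, 5 and 6 of 8 genes with the 3 extracts. FBL, on chromosome 19 at 39834458 to 39846379, encodes fibrillarin, the enzyme that methylates the ribose of ribosomal RNA. In A549 it was at 141, 149 and 155 CPM in control, 98, 105 and 101 CPM with P. chinensis, 106, 99.9 and 113 CPM with B. chinense, and 111, 106 and 108 CPM with P. umbellatus. All 9 treated libraries lay well below the lowest control, and the log2 fold changes were -0.55 ± 0.06, -0.48 ± 0.06 and -0.46 ± 0.06. Levels in Huh7 were 61.7, 61.8 and 60.9 CPM in control, 57.3, 57.4 and 60.6 CPM with P. chinensis, 52.4, 55.5 and 60.4 CPM with B. chinense, and 43.1, 44.2 and 51.2 CPM with P. umbellatus. Treated Huh7 libraries were also all below control, and only the change with P. umbellatus, -0.41 ± 0.08, was called. The GC content of its transcripts is 57.7%, and after the correction for GC content and length the value of FBL was 0.02. The fall of FBL was called at -0.38 without replicate 2 of P. umbellatus.

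NOLC1, which encodes a chaperone of these RNPs, was at 239, 263 and 251 CPM in A549 control, 189, 178 and 209 CPM with P. chinensis, 196, 199 and 211 CPM with B. chinense, and 208, 182 and 202 CPM with P. umbellatus. The A549 groups did not overlap with control, and NOLC1 fell by 0.39 ± 0.07, 0.31 ± 0.07 and 0.35 ± 0.07 on the log2 scale. Levels in Huh7 were 281, 275 and 268 CPM in control, 243, 248 and 239 CPM with P. chinensis, 283, 281 and 262 CPM with B. chinense, and 326, 309 and 282 CPM with P. umbellatus. The P. chinensis libraries were below and the P. umbellatus libraries above control in Huh7, at -0.17 ± 0.06 and 0.15 ± 0.06, and neither was called. The fall of NOLC1 with P. chinensis was called by DESeq2 and with only the 6 libraries compared. It was also called after a correction for GC content and length and without P. umbellatus replicate 2.

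Among the other genes of this role, DKC1, the pseudouridine synthase dyskerin, fell in A549 by 0.42 ± 0.08, 0.48 ± 0.09 and 0.40 ± 0.08 on the log2 scale. NOP56, a core protein of the methylating RNPs, was lower by 0.49 ± 0.11 with B. chinense and by 0.38 ± 0.11 with P. umbellatus in A549, the latter lost without control replicate 2 (adjusted p of 0.0745) or 3 (0.0728) or P. umbellatus replicate 2 (0.0829). Its partner NOP58 was called with P. chinensis and P. umbellatus, at -0.40 ± 0.10 and -0.50 ± 0.10, and NHP2 with P. umbellatus at -0.48 ± 0.14, which was lost without control replicate 2 (0.059) or P. umbellatus replicate 2 (0.0755) or 3 (0.069). In the annotation, exons of DKC1, NOP56 and NOP58 overlap small nucleolar RNA genes on the same strand, so reads of those RNAs could be counted with them.

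Assembly factors of the small subunit decreased in A549 in 7, 6 and 6 of 9 genes. DDX21, a nucleolar RNA helicase encoded on chromosome 10 at 68956135 to 68985068, was at 486, 480.1 and 473 CPM in A549 control, 373, 388 and 396 CPM with P. chinensis, 380.1, 368 and 372 CPM with B. chinense, and 389.6, 392 and 376 CPM with P. umbellatus. The treated libraries formed a narrow band below control, at -0.31 ± 0.04, -0.36 ± 0.04 and -0.31 ± 0.04 on the log2 scale. In Huh7 it was at 440.0, 460.3 and 447 CPM in control, 457, 467 and 449.6 CPM with P. chinensis, 466, 468 and 483 CPM with B. chinense, and 615, 712 and 540.2 CPM with P. umbellatus. The P. umbellatus libraries lay far above the other Huh7 groups, and DDX21 rose by 0.47 ± 0.08. The rise of DDX21 was 0.36 without replicate 2, and after the correction for GC content and length the value was 0.09 and was not called (0.142).

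NAT10, an RNA acetyltransferase that acts on the small subunit RNA, was at 153, 146 and 146 CPM in A549 control, 132, 128 and 135 CPM with P. chinensis, 128, 129 and 137 CPM with B. chinense, and 129, 133 and 128 CPM with P. umbellatus. All treated libraries were below control, and NAT10 fell by 0.17 ± 0.05, 0.18 ± 0.05 and 0.19 ± 0.05 on the log2 scale. In Huh7 it was at 103, 107 and 109 CPM in control, 86.1, 88.9 and 90.0 CPM with P. chinensis, 108, 107 and 116 CPM with B. chinense, and 118, 101 and 118 CPM with P. umbellatus. Only P. chinensis separated from control in Huh7, and NAT10 and POLR1B were the genes called lower with P. chinensis in both lines. The Huh7 call of NAT10 was lost without any 1 of the P. chinensis libraries or control replicate 2 or 3, at adjusted p of 0.0543 to 0.0809, and its A549 call with B. chinense without B. chinense replicate 1, at 0.0774. Upper quartile scaling removed the calls of NAT10 with P. chinensis in A549 (0.120) and Huh7 (0.0551) and with B. chinense in A549 (0.0711).

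HEATR1, UTP20 and WDR43, which belong to the particle that processes the early precursor of the small subunit, were called lower with all 3 extracts in A549, at log2 fold changes of -0.33 to -0.15. The call of UTP20 with B. chinense was lost without any 1 control library or B. chinense replicate 1 or 2, at adjusted p of 0.0526 to 0.127. In Huh7 with P. umbellatus the same 3 genes were called higher, at 0.44 ± 0.10, 0.46 ± 0.10 and 0.35 ± 0.08. HEATR1, UTP20 and WDR43 were at 0.30, 0.31 and 0.27 without replicate 2, all called, and at 0.06, 0.06 and 0.10 after the correction for GC content and length, none called. With P. chinensis in Huh7, HEATR1 and UTP20 were called lower with only the 6 libraries compared, after that correction and without P. umbellatus replicate 2. NOP14 decreased in A549 by 0.37 ± 0.08, 0.38 ± 0.08 and 0.33 ± 0.08. BYSL was called with P. chinensis only, at -0.41 ± 0.14, which was lost without any 1 of the P. chinensis libraries or control replicate 2 or 3 (0.0662 to 0.169). UTP4 and RRP12 were not called in either line as fitted. In Huh7 RRP12 was called lower with P. chinensis when only the 6 libraries were compared, and higher with P. umbellatus after the correction for GC content and length.

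The canonical E-box, the 6 letters CACGTG that MYC and MAX dimers and other factors bind and that read the same on both strands, was searched in promoter windows from RefSeq on GRCh38.p14, from 250 bases before to 50 bases after the annotated start. Windows were found for 32 of the 38 genes. The motif was present in 10 of the 32 (31.2%), in 9.77% of 11758 windows of genes in the table and in 7.43% of all 27305 windows. Before the start itself the shares were 9.38%, 8.62% and 6.49%, so most of the difference lay at or after the start. UTP20 and NAT10 were the genes called lower with all 3 extracts in A549 that held the motif before the start, and their 250 bases before the start are shown to place the E-box, in capitals, at bases -10 and -15. The UTP20 stretch is chr12:101279855-101280104 and the NAT10 stretch is chr11:34105379-34105628, both on the plus strand.
UTP20: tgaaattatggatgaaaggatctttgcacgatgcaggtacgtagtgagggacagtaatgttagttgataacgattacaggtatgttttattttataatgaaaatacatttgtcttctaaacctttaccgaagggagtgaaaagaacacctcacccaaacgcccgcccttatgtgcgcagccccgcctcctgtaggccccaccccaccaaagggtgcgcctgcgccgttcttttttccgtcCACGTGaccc
NAT10: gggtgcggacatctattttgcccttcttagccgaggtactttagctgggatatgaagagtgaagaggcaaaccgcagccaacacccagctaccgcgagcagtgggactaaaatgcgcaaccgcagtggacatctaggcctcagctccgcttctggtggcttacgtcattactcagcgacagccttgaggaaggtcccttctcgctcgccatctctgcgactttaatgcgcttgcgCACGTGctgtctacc

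Of the genes with the motif anywhere in the window, FBL, NOP14, UTP20, WDR43, NAT10, PES1 and NOP2 were called lower with all 3 extracts in A549, RRP9 and BYSL with 1 and UTP4 with none. UBTF, DKC1, HEATR1, DDX21, NCL, NPM1 and PA2G4 were also called with all 3 and had no match to these letters in the window. The match describes the sequence only, as no binding was measured.

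**Figure D2:**
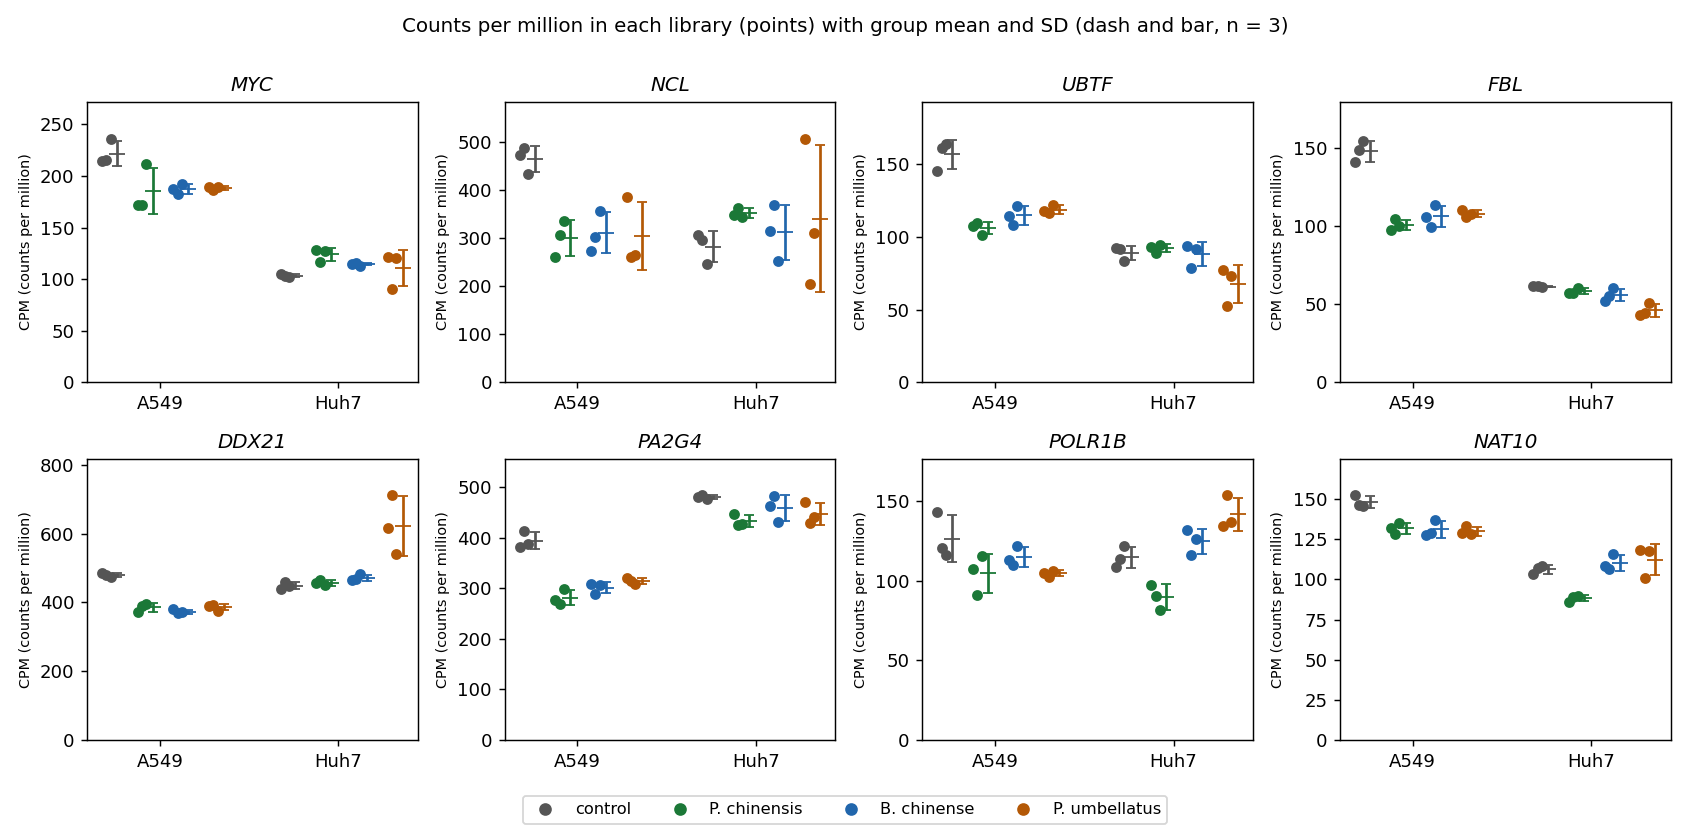
CPM in each library (points), with the group mean and SD (dash and bar, n = 3), is plotted for 8 genes in control cells and in cells treated with each extract. In A549 the treated points of MYC, NCL, UBTF, FBL, DDX21, PA2G4 and NAT10 all sit below the control points. In Huh7 they overlap or move either way, as for DDX21 (up to 712 CPM with P. umbellatus) and UBTF (down to 52.6 CPM).

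Assembly factors of the large subunit decreased in A549 in 4, 3 and 6 of 10 genes. BOP1, on chromosome 8 at 144262045 to 144291438, encodes a member of the complex with PES1 and WDR12 that matures the large subunit. It was at 102, 104 and 121 CPM in A549 control, 88.6, 87.0 and 81.2 CPM with P. chinensis, 87.6, 84.9 and 84.5 CPM with B. chinense, and 86.6, 82.6 and 89.9 CPM with P. umbellatus. No treated library reached control, and BOP1 fell by 0.35 ± 0.07, 0.35 ± 0.07 and 0.34 ± 0.07 on the log2 scale. In Huh7 it was at 46.4, 48.5 and 46.8 CPM in control, 37.3, 39.3 and 37.0 CPM with P. chinensis, 44.4, 44.5 and 49.6 CPM with B. chinense, and 33.6, 23.9 and 38.8 CPM with P. umbellatus. The fall with P. umbellatus, -0.55 ± 0.13, was called, and after the correction for GC content and length BOP1 was called in the other direction, at 0.30 ± 0.08. The fall of BOP1 was called at -0.38 without replicate 2 of P. umbellatus. With P. chinensis all Huh7 libraries lay below control, and BOP1 was not called as fitted. It was called lower there with only the 6 libraries compared, after the correction for GC content and length and without P. umbellatus replicate 2.

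Of its partners, PES1 was lower in A549 with all 3 extracts, at -0.18 ± 0.05, -0.18 ± 0.05 and -0.19 ± 0.05, and WDR12 was not called there. All 3 calls of PES1 were lost without control replicate 3, at adjusted p of 0.0721, 0.0911 and 0.0705, and those with the first 2 extracts without replicate 1 of the treated group, at 0.0616 and 0.130. In Huh7 with P. chinensis, PES1 lay above control in all libraries and was not called as fitted. It was called higher there with only the 6 libraries compared, after the correction for GC content and length and without P. umbellatus replicate 2. NIP7, which acts in the cleavage of the precursor RNA, was called in none of the 6 comparisons of an extract with control as fitted. Between the control groups it was called lower in A549 than in Huh7. It was at 62.8, 62.4 and 57.6 CPM in A549 control, 62.4, 55.5 and 62.2 CPM with P. chinensis, 52.0, 52.3 and 63.3 CPM with B. chinense, and 52.1, 57.1 and 57.5 CPM with P. umbellatus. Only the P. umbellatus libraries lay below the A549 control. In Huh7 it was at 79.8, 82.1 and 80.2 CPM in control, 93.3, 91.6 and 90.7 CPM with P. chinensis, 79.9, 87.4 and 81.5 CPM with B. chinense, and 85.9, 102 and 89.8 CPM with P. umbellatus. P. chinensis and P. umbellatus lay above control in Huh7, and the value for P. chinensis, 0.19 ± 0.07, had an adjusted p of 0.0909. With P. chinensis NIP7 was called higher by DESeq2, with upper quartile scaling and with a mean of at least 50 counts. The same held with only the 6 libraries compared and without P. umbellatus replicate 2, but not after the correction for GC content and length. With P. umbellatus it was called higher by DESeq2.

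WDR74 had the largest fall of the 38 genes, -0.78 ± 0.17 with P. umbellatus in A549, and PPAN was also among the 3 largest there at -0.51 ± 0.13. The level of WDR74 was 1979, 1338 and 1107 CPM in A549 control and 836, 903 and 832 CPM with P. umbellatus. The control libraries thus differed more among themselves than the treated ones. Exons of WDR74 overlap a gene for U2 small nuclear RNA, RNU2-2P, on the same strand, and those of PPAN overlap P2RY11 and the PPAN-P2RY11 readthrough gene, so neither value can be assigned to the named gene alone. RRS1 and NOP16 were called in neither line as fitted. In Huh7 with P. umbellatus, RRS1 was called lower by DESeq2 and with a mean of at least 50 counts. NOP2 was lower with all 3 extracts in A549, the call with P. umbellatus being lost without control replicate 3 (0.0658) or P. umbellatus replicate 3 (0.0513). GNL3 was lower with P. umbellatus at -0.48 ± 0.17, a call lost without any 1 of 8 libraries, at 0.0525 to 0.180.

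Of the 4 abundant nucleolar and growth-linked genes 3 decreased with each extract in A549, and NCL was among the 3 largest falls of the 38 genes with each. NCL, on chromosome 2 at 231453531 to 231483641, encodes nucleolin, which binds the ribosomal DNA and precursor RNA. In A549 it was at 472, 487 and 434 CPM in control, 260.1, 305 and 335 CPM with P. chinensis, 273, 303 and 357 CPM with B. chinense, and 386, 260.4 and 265 CPM with P. umbellatus. The treated libraries were spread widely, but all were below the lowest control. NCL fell to 0.65-fold, 0.67-fold and 0.66-fold of control, or by 0.63 ± 0.14, 0.58 ± 0.14 and 0.61 ± 0.14 on the log2 scale (edgeR adjusted p of 0.00269, 0.00577 and 0.004).

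In Huh7, NCL was at 306, 295 and 246 CPM in control, 347, 363 and 345 CPM with P. chinensis, 314, 368 and 253 CPM with B. chinense, and 505, 204 and 311 CPM with P. umbellatus. The P. chinensis libraries lay above control and the other groups overlapped with it, and none of the Huh7 changes was called. NCL was called higher with P. chinensis when only the 6 libraries were compared (0.32, adjusted p of 0.00533) and with P. umbellatus without replicate 2 (0.53, at 0.0409), while after the correction for GC content and length the latter value was 0.02. Exons of NCL overlap SNORA75 and SNORD20, small nucleolar RNA genes on the same strand. NPM1, nucleophosmin, fell in A549 by 0.36 ± 0.07, 0.43 ± 0.07 and 0.42 ± 0.07 on the log2 scale. With 49 named pseudogenes in the annotation, its reads could be divided among near copies.

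PA2G4, a growth-regulated RNA-binding protein of the nucleolus, was at 382, 413 and 387 CPM in A549 control, 276, 269.9 and 299 CPM with P. chinensis, 308, 289 and 308 CPM with B. chinense, and 320.2, 315 and 309 CPM with P. umbellatus. The 3 treated groups were all below control and P. chinensis was the lowest, at -0.48 ± 0.05, -0.39 ± 0.05 and -0.32 ± 0.05 on the log2 scale. Levels in Huh7 were 480.3, 485 and 476 CPM in control, 447, 425 and 428 CPM with P. chinensis, 462, 482 and 432 CPM with B. chinense, and 472, 429 and 440.5 CPM with P. umbellatus. P. chinensis and P. umbellatus lay below control in Huh7 without being called. With P. chinensis PA2G4 was called lower by DESeq2, with only the 6 libraries compared, after the correction for GC content and length and without P. umbellatus replicate 2. With P. umbellatus it was called lower after that correction, at -0.24 (edgeR adjusted p of 0.0192).

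LYAR, a nucleolar protein known for promoting cell growth, was the one gene called higher in Huh7 with P. chinensis. It was at 51, 48.1 and 49.9 CPM in Huh7 control, 61.1, 59.2 and 58.9 CPM with P. chinensis, 51.4, 56.5 and 48.4 CPM with B. chinense, and 74.3, 69.4 and 60.5 CPM with P. umbellatus. P. chinensis and P. umbellatus were above control, at 0.27 ± 0.09 and 0.45 ± 0.09 on the log2 scale, with edgeR adjusted p of 0.0459 and 0.00309. The call of LYAR with P. chinensis was lost without any 1 of 9 libraries, those of control, P. chinensis and B. chinense, at 0.0546 to 0.164, and after the correction for GC content and length (0.102). With P. umbellatus LYAR was at 0.435 without replicate 2 and still called, and at 0.20 after that correction and not called (0.119). In A549 its level was low, at 11.9, 13.2 and 13.4 CPM in control, 9.83, 12.1 and 10.5 CPM with P. chinensis, 7.72, 11.3 and 13.2 CPM with B. chinense, and 11.3, 11.1 and 8.80 CPM with P. umbellatus, and no change was called.

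**Figure D3:**
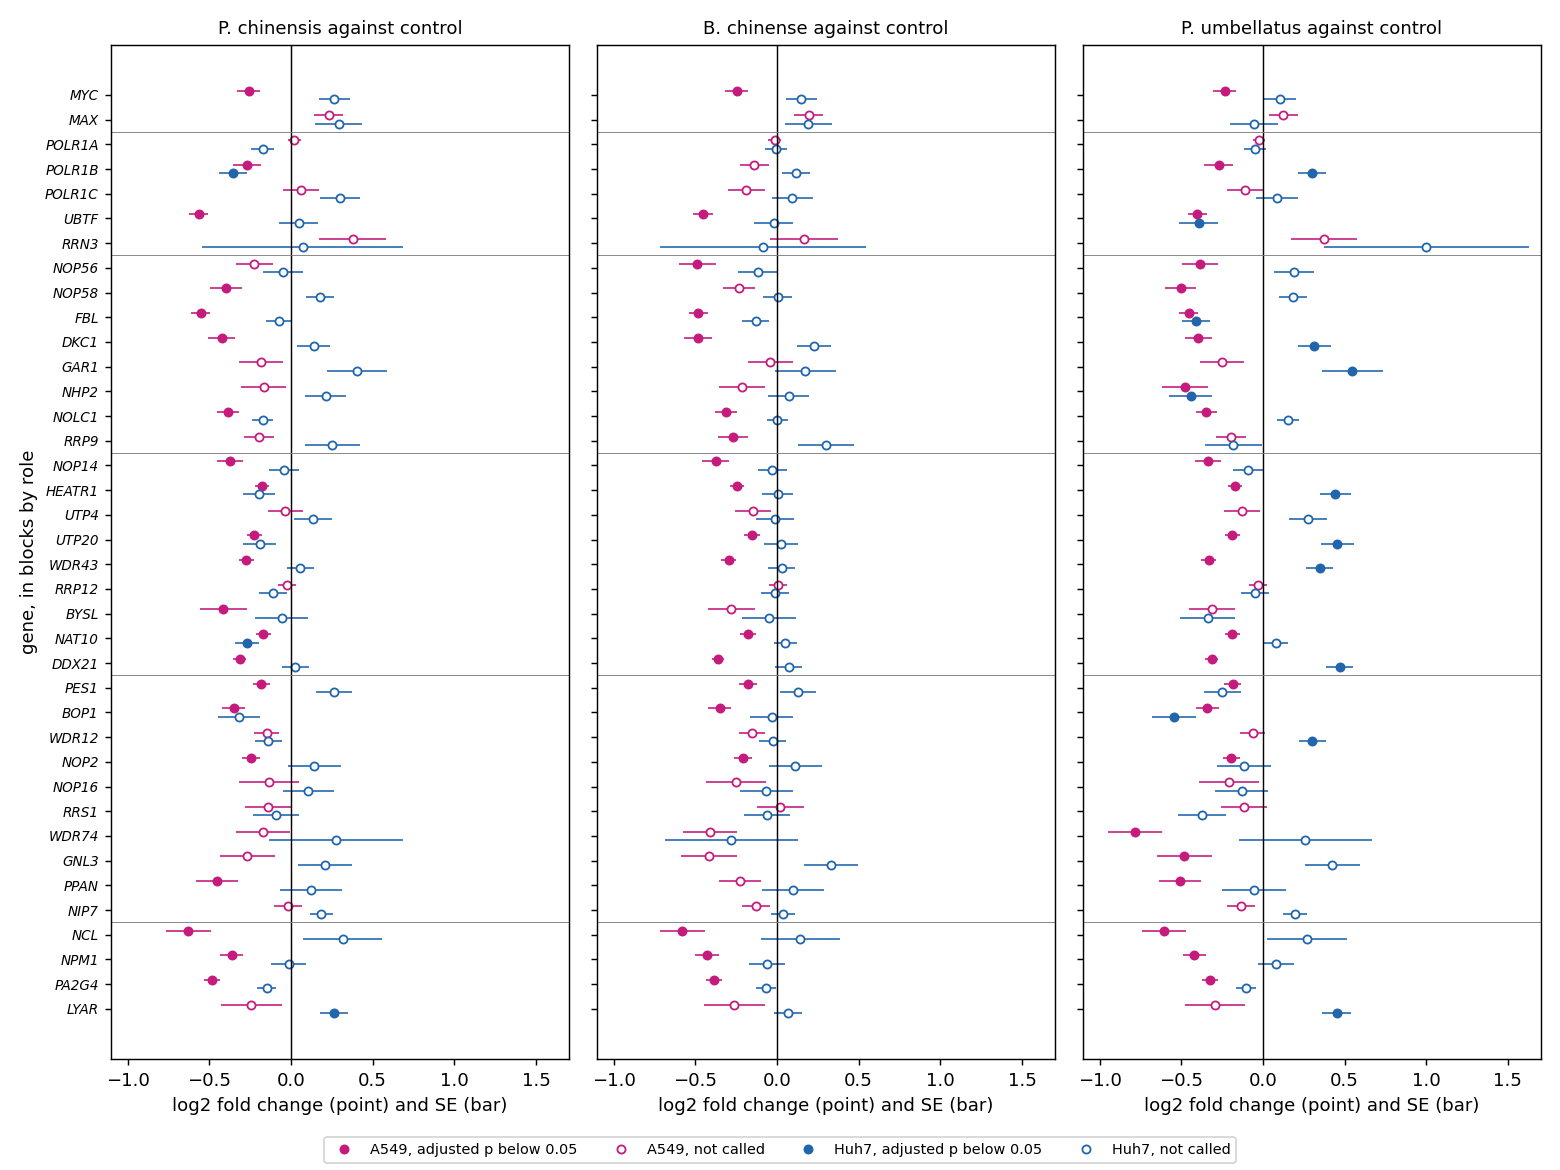
Log2 fold changes against control (points) with SE (bars) are drawn for the 38 genes in A549 and Huh7, 1 panel per extract, and filled points have an adjusted p below 0.05. Filled A549 points lie left of 0 in all panels (21, 19 and 24 genes), while filled Huh7 points number 3, 0 and 13 and lie on both sides.

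The extracts were then compared with each other to ask whether their effects on these genes differed. In A549 none of the 38 genes was called between P. chinensis and B. chinense, P. chinensis and P. umbellatus, or B. chinense and P. umbellatus, where 1.45%, 3.01% and 0.0513% of all genes were called by edgeR. At an unadjusted p below 0.05 there were 2, 4 and 3 genes, and DESeq2 called 1 gene between P. chinensis and P. umbellatus. For MYC the differences were -0.01 (95% interval -0.16 to 0.14), -0.02 (-0.17 to 0.13) and -0.01 (-0.16 to 0.14) on the log2 scale, and for NCL they were -0.05 (-0.35 to 0.25), -0.02 (-0.32 to 0.27) and 0.03 (-0.27 to 0.32). The distance from the estimate to either end of the interval had a median over the 38 genes of 0.19, 0.18 and 0.19. These intervals are not adjusted for the number of genes tested, and a call needs a larger difference than one whose interval excludes 0. The lack of calls therefore does not show that the extracts acted alike on these genes.

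In Huh7, P. chinensis and B. chinense differed in 2 of the 38 genes, POLR1B and NAT10, both lower with P. chinensis, where 7.8% of all genes were called. P. chinensis differed from P. umbellatus in 12 genes, 4 higher and 8 lower with P. chinensis, against 35.4% of all genes. B. chinense differed from P. umbellatus in 11 genes, against 27.2%. These shares of the 38 genes were near those of all genes. Without replicate 2 of P. umbellatus the 3 counts were 8, 15 and 11. As the shares of all genes in that fit are not given here, the change in these counts cannot be read as particular to the 38 genes. UBTF, FBL, NHP2 and PES1 were higher and HEATR1, UTP20, WDR43, DDX21 and WDR12 were lower with both P. chinensis and B. chinense than with P. umbellatus.

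The response of the 2 lines to the same extract was tested as an interaction in 1 model of the 24 libraries. With P. chinensis, 10 of the 38 genes had a lower response in A549 than in Huh7 and 1 a higher response, where 9.3% of all genes were called lower and 19.6% in either direction. The 10 were MYC, UBTF, NOP58, FBL, DKC1, WDR43, DDX21, PES1, NCL and PA2G4, and POLR1A was the exception at 0.25 ± 0.08. The largest difference was that of NCL, -0.89 ± 0.30. With B. chinense, FBL, DKC1, WDR43, DDX21 and PA2G4 responded lower in A549, 5 of 38 against 5.79% of all genes (11.6% in either direction). With P. umbellatus 14 genes did, against 15.3% (34.4% in either direction). No member had a higher response in A549 with these 2 extracts. Without replicate 2 of Huh7 with P. umbellatus, 16, 16 and 17 of the 38 genes were called in either direction. Leaving it out changes the spread estimated for all genes. The shares of all genes in that fit are not given here, so these counts say nothing about the 38 genes in particular.

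The control cells of the lines differ in origin as well as in p53. Between them, 16 of the 38 genes (42.1%) were called higher in A549 and 7 (18.4%) lower. Of all genes tested 33.7% were called higher, 34.9% lower and 68.6% in either direction. Counted in either direction, the 38 genes were thus not called more often than all genes. Their share called higher was above that of all genes, and their share called lower was below it. MYC was 2.15-fold higher in A549 at 1.10 ± 0.08 on the log2 scale and MAX was higher at 0.97 ± 0.12. FBL, BOP1 and WDR43 were also more than 2-fold higher in A549, at 1.27 ± 0.07, 1.21 ± 0.11 and 1.18 ± 0.06, and LYAR and NOP14 were lower at -1.93 ± 0.13 and -1.15 ± 0.08.

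Members called in opposite directions in the 2 lines were found with P. umbellatus only, and were POLR1B, DKC1, HEATR1, UTP20, WDR43 and DDX21, all lower in A549 and higher in Huh7. UBTF, FBL, NHP2 and BOP1 were lower in both lines. In Huh7 these directions followed the GC content of the transcripts. The 9 genes called higher had a GC content of 39.7% to 48.1%, and the 4 called lower one of 56.1% to 65.9%. Over the 38 genes the log2 fold change with P. umbellatus in Huh7 had a Pearson r of -0.78 with GC content, as a description over genes of the same 6 libraries, and over all genes r was -0.60. In the other 5 comparisons r over the 38 genes was -0.17 to -0.01.

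GAR1, a component of the pseudouridylating RNPs, had the largest rise called in Huh7 with P. umbellatus, 0.55 ± 0.19, and DDX21 was next. The call of GAR1 was lost without any 1 of 8 libraries (0.0599 to 0.123), that of DKC1 without any 1 of 7 (0.0524 to 0.0973), that of NHP2 without control replicate 2 (0.0557) or 3 (0.0637) or P. umbellatus replicate 1 (0.0653), and that of WDR12 without control replicate 2 (0.0575) or 3 (0.0542). After a correction for GC content and length, none of the 13 calls was kept in its direction. FBL and WDR12 then had values of 0.02 and -0.12, and 2 genes were called lower (NPM1 and PA2G4) and 5 higher (MYC, RRP9, RRP12, BOP1 and PPAN). Of 13876 genes tested, 1839 were called lower and 854 higher after the correction. Without replicate 2 of the group, 11 of the 13 calls were kept, DKC1 and GAR1 being lost at 0.24 and 0.40, and NHP2 and WDR12 were at -0.37 and 0.19. Whether the extract or the library preparation set these values was not tested. In A549 the same correction gave 21, 20 and 23 genes called lower, where 2449, 2068 and 2073 of all 13634 genes tested were called lower.

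**Figure D4:**
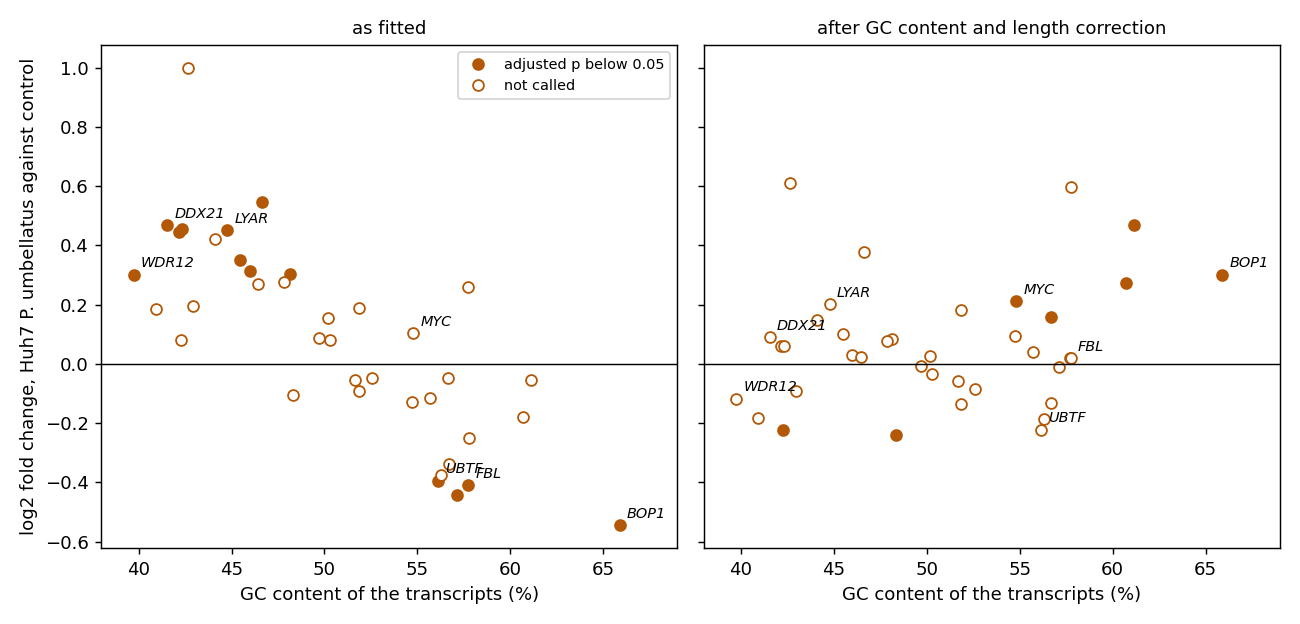
The log2 fold change with P. umbellatus in Huh7 is plotted against the GC content of the transcripts for the 38 genes, as fitted (left) and after correction for GC content and length (right), with filled points at an adjusted p below 0.05. On the left the called genes of lower GC content lie above 0 (DDX21 at 0.47) and those of higher GC content below it (BOP1 at -0.55). On the right BOP1 stands at 0.30 and DDX21 at 0.09.

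Other genes of the pathway were read from lists of 102 further ribosome biogenesis genes, 79 genes for proteins of the cytosolic ribosome and 11 other members of the MYC network. In A549, 35, 37 and 31 of the 102 were called lower with the 3 extracts and 2, 1 and 1 higher, where 17.1%, 15% and 14.8% of all genes were lower and 15.7%, 13.1% and 13.4% higher, with medians of -0.17, -0.21 and -0.20. The ribosomal protein genes were called lower in 25, 31 and 43 of 79 and higher in 1, 1 and 0. In Huh7 with P. chinensis, 6 of the 102 were lower and 12 higher, where 10.5% and 10.4% of all genes were called, and with B. chinense none was called. With P. umbellatus 16 were lower and 34 higher, where 17.8% and 19.3% of all genes were called. Of the ribosomal protein genes 26 were lower and 0 higher with P. umbellatus in Huh7, 0 lower and 1 higher with P. chinensis, and 0 in either direction with B. chinense. For these lists the values with P. umbellatus in Huh7 are as fitted. In that comparison the fold change over all genes followed GC content (r of -0.60), and its part in these values was not tested.

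**Figure D5:**
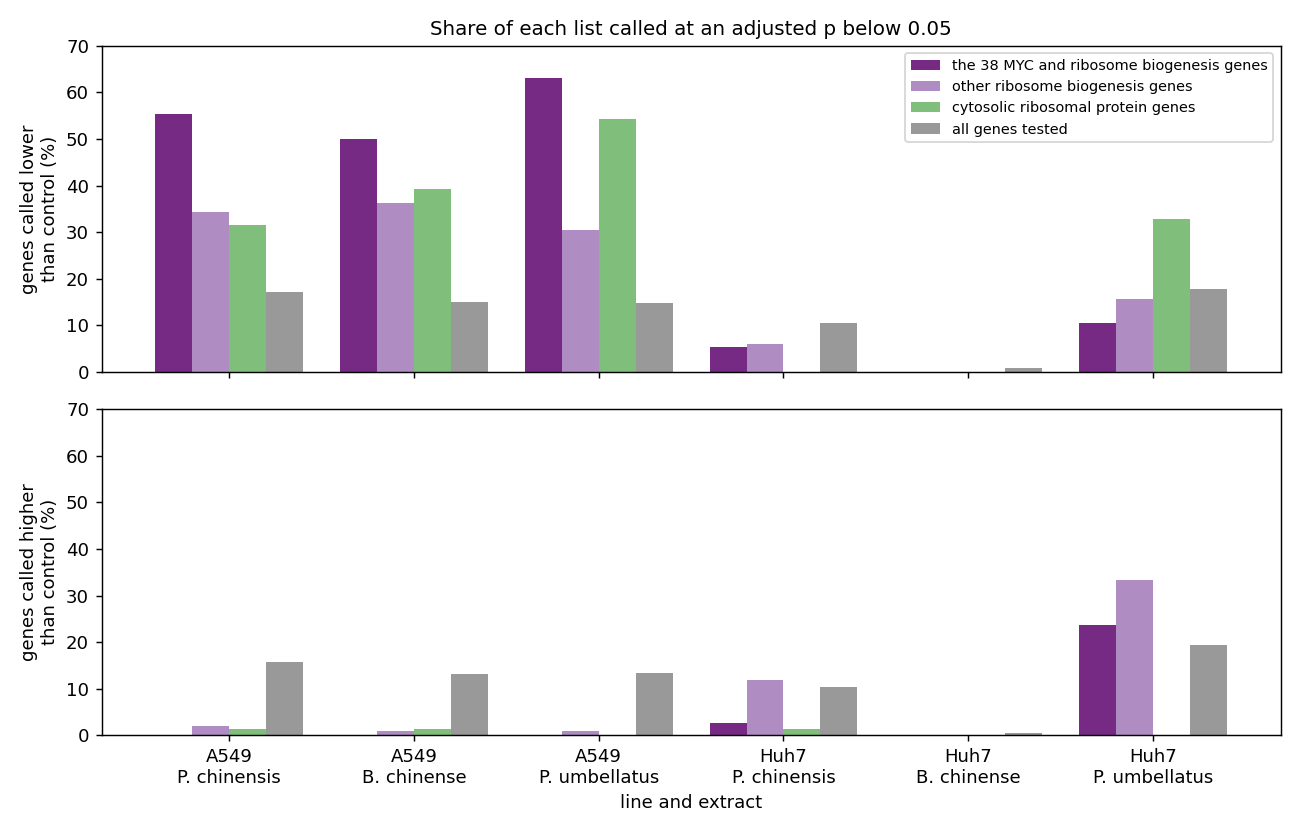
Bars give the percentage of each gene list called lower (top) or higher (bottom) than control at an adjusted p below 0.05, for the 6 comparisons. In A549 the 38 genes reach 55.3%, 50% and 63.2% lower against 17.1%, 15% and 14.8% of all genes, and the 2 other ribosome lists lie between.

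Among single genes of these lists, TCOF1, the treacle protein that works with UBTF on ribosomal DNA, had the largest fall of the biogenesis list in A549 with P. chinensis, -0.97 ± 0.09, and was lower with the other extracts at -0.72 ± 0.09 and -0.71 ± 0.09. TCOF1 was also lower in Huh7 with P. umbellatus, at -0.61 ± 0.15 as fitted, without the correction for GC content and length. In Huh7 with P. chinensis UTP25 and SBDS, which act in small subunit processing and in the last steps of the large subunit, rose by 0.67 ± 0.09 and 0.57 ± 0.10, and MDN1, a large ATPase of large subunit assembly, fell by 0.80 ± 0.17. MDN1 was lower with P. chinensis in A549 too, at -0.67 ± 0.17.

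Of the MYC network genes, MXD4, MXD1 and MXD3 had larger changes than MYC in A549. MXD4 and MXD1, which compete with MYC for MAX and repress its targets, rose by 1.59 ± 0.11 and 1.30 ± 0.14 on the log2 scale with P. chinensis, by 1.73 ± 0.11 and 1.15 ± 0.14 with B. chinense, and by 1.72 ± 0.11 and 1.20 ± 0.14 with P. umbellatus. MXD3, of the same family, fell by 1.38 ± 0.28, 0.83 ± 0.28 and 0.78 ± 0.27. In Huh7, MXD1 was higher with P. chinensis and P. umbellatus, at 0.43 ± 0.09 and 0.39 ± 0.09, whereas MXD4 was not called with P. chinensis, at 0.10 ± 0.15, and fell by 0.95 ± 0.16 with P. umbellatus. MYCN, a close relative of MYC that was tested in Huh7 only, fell by 1.64 ± 0.10, 0.55 ± 0.10 and 0.89 ± 0.10 with the 3 extracts. The values of these genes with P. umbellatus in Huh7 are as fitted, without the correction for GC content and length. In all, 2 of 10 network genes were called higher and 3 lower with P. chinensis in A549, and 1 of 11 in each direction in Huh7. With B. chinense 2 were higher and 2 lower in A549 and 1 was lower in Huh7, and with P. umbellatus 2 were higher and 1 lower in A549 and 3 higher and 5 lower in Huh7.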

How the data were processed

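Total RNA depleted of ribosomal RNA was sequenced as paired ends from 24 libraries. The authors estimated transcript abundance with kallisto on Ensembl GRCh38.p13, removed genes that code for no protein or average 5 counts or fewer, and the deposited values are estimated counts, whole and not normalized. How transcripts were summed and rounded is not given in the sources used here, and the study's own tests used DESeq2. Here, genes averaging more than 5 counts in a line's 12 libraries (A549 13634, Huh7 13876) were normalized by TMM and fitted per line in edgeR 4.0.16 (R 4.3.3) with 1 coefficient per group, a quasi-likelihood test (two-sided), a prior count of 2 and a Benjamini-Hochberg adjusted p threshold of 0.05. Interactions and the control comparison used all 24 libraries and 12925 genes. CPM values are TMM-scaled within a line, and differences of library levels used log2(CPM + 0.5). Samples were grouped by their labels and no column was left out.

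Totals of 6803704 to 24345541 counts per library limit counting error, and replicate spread sets the SE. Replicates differed by more than sampling noise (chi-square over its expectation of 2.73 or more). Same-numbered libraries did not deviate together, so the numbers were not used as pairs. Gene positions, transcript GC content and length, overlaps and pseudogenes came from a GENCODE annotation of GRCh38, and promoter windows from RefSeq GRCh38.p14. Symbols were found for 14584 of 14585 identifiers.

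The 38 genes and the other lists were chosen with earlier results of these data known, so no test is given over a list. Values in every library are given for MYC and MAX and, in each other role, for the gene with the lowest p with P. chinensis in A549 and in Huh7. The 3 largest called changes of each comparison with control and genes called in opposite directions in the lines are named, as are the 2 largest called rises and falls with P. chinensis in the other lists. NCL and WDR74 are shown by library as the largest called changes. Alternatives were DESeq2 1.42.0, RLE and upper quartile factors, no filter and a mean of at least 50 counts, only the 6 libraries compared, a replicate block, a GC content and length correction, and leaving out each library. The scripts were tested on simulated data.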

Additional observations from a re-analysis of the deposited data

Results flagged for a closer look

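Responses that differed between A549 and Huh7 by the interaction test (edgeR, adjusted p below 0.05 over 12925 genes) are listed with the log2 difference, A549 minus Huh7. Each is listed because the difference between the lines was itself tested. With P. chinensis, MYC differed by -0.47, and POLR1A, at 0.25, was the one value above 0. The polymerase factor UBTF was at -0.56, the RNP proteins NOP58, FBL and DKC1 at -0.52, -0.43 and -0.51, the assembly factors WDR43, DDX21 and PES1 at -0.28, -0.29 and -0.39, and NCL and PA2G4 at -0.89 and -0.28.

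With B. chinense, FBL was at -0.31, DKC1 at -0.67, WDR43 at -0.28, DDX21 at -0.39 and PA2G4 at -0.28. FBL and WDR43 were close to the threshold, at adjusted p of 0.0445 and 0.0458.

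With P. umbellatus the values were -0.49 for POLR1B, -0.49 for NOP56, -0.61 for NOP58, -0.63 for DKC1, -0.72 for GAR1 and -0.42 for NOLC1. Small subunit factors were at -0.53 (HEATR1), -0.56 (UTP20), -0.60 (WDR43) and -0.70 (DDX21). GNL3 was at -0.82, NCL at -0.80, NPM1 at -0.42 and LYAR at -0.66. The Huh7 arm of this last comparison holds the libraries whose expression, relative to the other Huh7 libraries, followed GC content. In the Huh7 fit alone, DDX21, UTP20, DKC1 and NOP58 were at 0.47, 0.46, 0.31 and 0.19 with P. umbellatus. After the correction for GC content and length they were at 0.09, 0.06, 0.03 and -0.18, while NOP56 stayed at 0.18 from 0.19. The differences between the lines after that correction are not given here, and the part of GC content in them was not tested.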

How the results depend on the processing

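The decrease in A549 kept its direction under every alternative run: 15 to 21, 14 to 20 and 19 to 24 genes were called lower with the 3 extracts (P. chinensis, then B. chinense, then P. umbellatus), the lowest of the first 2 with upper quartile factors. That scaling moved the median of the 38 genes to -0.17, -0.19 and -0.24, and split the calls of all genes with P. chinensis as 1785 lower and 2731 higher in place of 2326 and 2147. It called 1 of the 38, MAX, higher with P. chinensis, as did a mean of at least 50 counts. Leaving out single libraries gave medians of -0.29 to -0.21 with P. chinensis and -0.26 to -0.21 with B. chinense, and 0 to 1 gene higher with P. chinensis. Between P. chinensis and P. umbellatus in A549, 1 gene was called by DESeq2, with 6 libraries and after GC content and length correction, and 0 to 1 without single libraries.

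Huh7 counts were less stable. With P. chinensis, DESeq2 called 5 lower and 3 higher, upper quartile factors 1 and 3 (median 0.12), the 6 libraries compared 10 and 13, and GC content and length correction 8 and 4. Over all genes, 1451 were lower and 1450 higher as fitted, 1882 and 1685 with DESeq2, and 1136 and 1784 with upper quartile factors. They were 3013 and 2879 with the 6 libraries, and 2310 and 1998 after the correction. No filter called 0 higher and a mean of at least 50 counts 2. Leaving out single libraries gave 0 to 9 lower, 0 to 7 higher and a median of 0.0171 to 0.083, with both highest counts reached without P. umbellatus replicate 2. With B. chinense, 2 were higher with 6 libraries, 1 after GC content and length correction and 0 to 1 without single libraries, and the median was 0.0369 with upper quartile factors, -0.0031 after GC content and length correction and 0.0069 to 0.0401 without single libraries. Over all genes, 72 were higher as fitted, 400 with 6 libraries and 268 after the correction. With P. umbellatus, the 6 libraries compared left 1 lower and 1 higher, GC content and length correction gave 2 and 5, and leaving out single libraries gave 2 to 6 lower and 5 to 13 higher. Over all genes, 2464 were lower and 2674 higher as fitted, 719 and 539 with the 6 libraries, and 1839 and 854 after the correction. The correction reversed FBL (0.0195), BOP1 (0.30) and WDR12 (-0.12) in that comparison.

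Between extracts in Huh7, P. chinensis against B. chinense gave 7 genes with 6 libraries, 6 after GC content and length correction and 1 to 8 without single libraries. P. chinensis against P. umbellatus gave 7 with 6 libraries. B. chinense against P. umbellatus gave 0 with 6 libraries, 0 after GC content and length correction and 4 to 15 without single libraries. The response to P. chinensis differed between the lines in 7 genes with no filter and in 6 to 16 without single libraries. That to B. chinense differed in 8 by DESeq2, 3 with no filter, 13 after GC content and length correction and 2 to 16 without single libraries, the highest without Huh7 P. umbellatus replicate 2. The causes were not tested.

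Replicate numbers did not pair the libraries (correlations of deviations of same-numbered libraries were -0.10 to 0.07 in A549 and -0.07 to 0.11 in Huh7). A replicate block left 21, 19 and 24 genes lower in A549, called 0 higher with P. chinensis in Huh7 and moved the B. chinense median there to 0.0273.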
